A study of Mus musculus with 9 samples.

Results

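The comparison of IN@OMVs with Control rests on 6 of the 9 libraries of the series, the 3 labelled IN@OMVs and the 3 labelled Control, and covers 13090 genes that passed a filter on low counts, of 18042 in the table. Each library holds RNA of tumour-associated macrophages, sorted by FACS as CD11b+ F4/80+ cells from tumours of MC38, a mouse colon carcinoma line. The tumours were grown under the skin of female C57BL/6 mice aged 6 to 8 weeks, each injected with 1000000 MC38 cells, and all mice are labelled WT. Mice were divided at random on day 9, and IN@OMVs mice received 12.5 µg of vesicle protein (625 µg per kg of body weight) into the tumour, and Control mice an equal volume of solvent, which the Control labels give as PBS. The remaining 3 libraries, OMVs, came from mice given OMVs at the same protein dose and are used here to show where IN@OMVs differed from them. The labels spell out neither OMVs, the usual abbreviation of the outer membrane vesicles that bacteria shed, nor IN. Replicates are labelled as biological, without saying whether each is 1 mouse or a pool, so the p-values measure the spread between these libraries. How long after injection the tumours were harvested is not stated in the labels.

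Macrophages read bacterial material through Toll-like receptors and other sensors. Signalling through NF-kB then induces cytokines, neutrophil chemokines and acute phase proteins. Interferons act on the same cells through JAK kinases, STAT proteins and the IRF factors. They induce the guanylate-binding proteins, the immunity-related GTPases, antiviral proteins and the machinery of antigen presentation. In tumours, macrophages are also known for genes of matrix remodelling, arginine metabolism and checkpoint ligands, and sorted fractions can hold monocytes and neutrophils that carry the same surface integrins.

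Of the 13090 genes, 858 (6.55%) passed an adjusted p of 0.05 in edgeR's quasi-likelihood test with Benjamini-Hochberg adjustment. These were 434 genes higher in IN@OMVs (3.32%) and 424 lower (3.24%). At an unadjusted p under 0.05 there were 2594 genes. In each library 16813230 to 17288322 expected counts were assigned to genes. Changes beyond 2 log2 units were mostly falls. At least 1 log2 unit separated the groups for 77 called genes that were higher (0.588%) and 140 that were lower (1.07%), and at least 2 log2 units for 4 and 60. The IN@OMVs and Control libraries did not overlap for 25.9% of genes, so separation of 3 libraries from 3 was common in this table. Over all genes the median log2 fold change was -0.0024. The library labelled IN@OMVs 1 stood apart: it lay at -60.02 on the first principal component, against -3.13 to 19.2 for the other 8 libraries. Leaving it out raised the count of called genes to 1635, of which 841 were among the 858. The count was 486, 400 and 393 without Control 1, Control 2 and Control 3, and 496 without IN@OMVs 3. Counts of called list members against Control are therefore also given without IN@OMVs 1 where they differ.

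**Figure D1:**
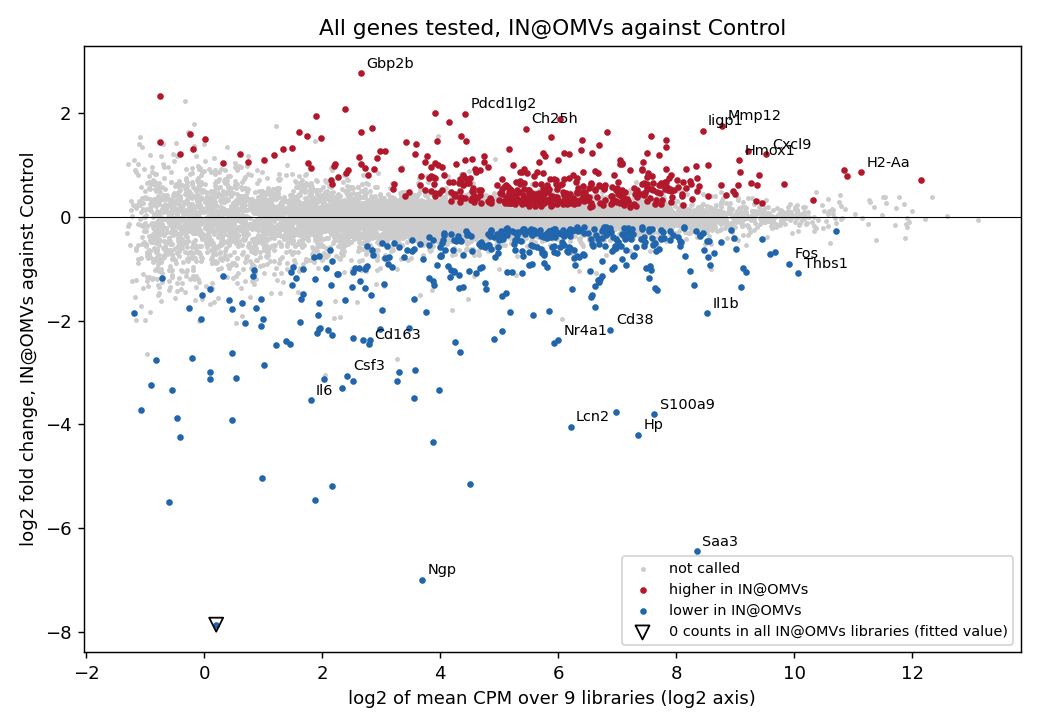
Each point is 1 of 13090 genes, with the log2 of its mean CPM (counts scaled to a library of 1000000) over 9 libraries on the x axis and the log2 fold change of IN@OMVs against Control on the y axis. Called genes are red (434 higher) or blue (424 lower), and the falls reach further from 0 than the rises: 60 called genes lie below -2 and 4 above 2.

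Markers of the sorted cell type were abundant in all libraries. Summed over 14 macrophage markers, levels were 19672, 21040 and 22285 CPM in Control 1, 2 and 3 and 24794, 19378 and 19039 CPM in IN@OMVs 1, 2 and 3, so the groups overlapped. Of the 14, 1 was called (Cd14, lower), or 7.1% against 6.55% of all genes, and 2 without IN@OMVs 1. For the 2 sort markers, Adgre1, which encodes F4/80, was at 462, 476 and 545 CPM in Control and 568, 384 and 426 CPM in IN@OMVs and was not called (log2 fold change -0.11 ± 0.17, adjusted p = 0.80). Itgam, which encodes CD11b, was at 1726, 1735 and 1798 CPM in Control and 1479.5, 1079.7 and 1165 CPM in IN@OMVs. Every IN@OMVs library was thus below every Control library for Itgam, and its log2 fold change of -0.50 ± 0.13 just missed the threshold (adjusted p = 0.051). Without IN@OMVs 1 it was -0.65 and called (adjusted p = 0.0014). Csf1r, the receptor of the macrophage growth factor CSF1, was at 1532 ± 21.1 and 1452 ± 331 CPM in Control and IN@OMVs (mean ± SD, n = 3) and was not called.

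Neutrophil markers moved with the comparison. Their sum was 1624, 1160 and 1163 CPM in Control and 276, 239 and 283 CPM in IN@OMVs, and 12 of 13 tested markers were called lower, with Camp the exception, and all 13 without IN@OMVs 1. Elane, Mpo and Cxcr1 were below the filter on low counts. Ly6g, the surface marker that defines mouse neutrophils, was at 5.25, 3.33 and 3.63 CPM in Control and 0.123, 0.114 and 0.116 CPM in IN@OMVs, where these levels stand for very few counts. Monocyte markers summed to 7642, 7532 and 7155 CPM in Control and 4042, 5210 and 5205 CPM in IN@OMVs, and 10 of 14 were called lower, while Ccr2, Ly6c1, Ly6c2 and Fn1 were not. The 10 include Cd177, grouped below with genes of neutrophil granules and surface, and Hp, grouped below with acute phase proteins. With IN@OMVs 1 left out, 12 monocyte markers were called lower and 1 higher (Ly6c1). Conventional dendritic cell markers summed to 452, 425 and 392 CPM in Control and 544, 499 and 529 CPM in IN@OMVs, with 3 of 14 called higher (Clec9a, Batf3 and Naaa), with or without IN@OMVs 1, and 1 without Control 1, Control 2, Control 3 or IN@OMVs 3. In bulk RNA, fewer cells of a type and less RNA per cell cannot be told apart.

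Fibroblast markers summed to 2009 CPM in IN@OMVs 1 and to 4674 to 7962 CPM in the other 8 libraries, with 0 of 14 called by edgeR, DESeq2 or limma-voom and 1 at an unadjusted p under 0.05. Pdgfrb was called higher when IN@OMVs 1 was left out. T cell markers summed to 327 CPM in Control 1 and 319 CPM in IN@OMVs 1, against 98.0 to 189.8 CPM in the other Control and IN@OMVs libraries. Of 15 T cell markers, 1 was called (Il7r, higher), or 6.7% against 6.55% of all genes, but 0 without Control 2 or Control 3. These 2 sums differed between libraries of 1 group more than between the groups.

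**Figure D2:**
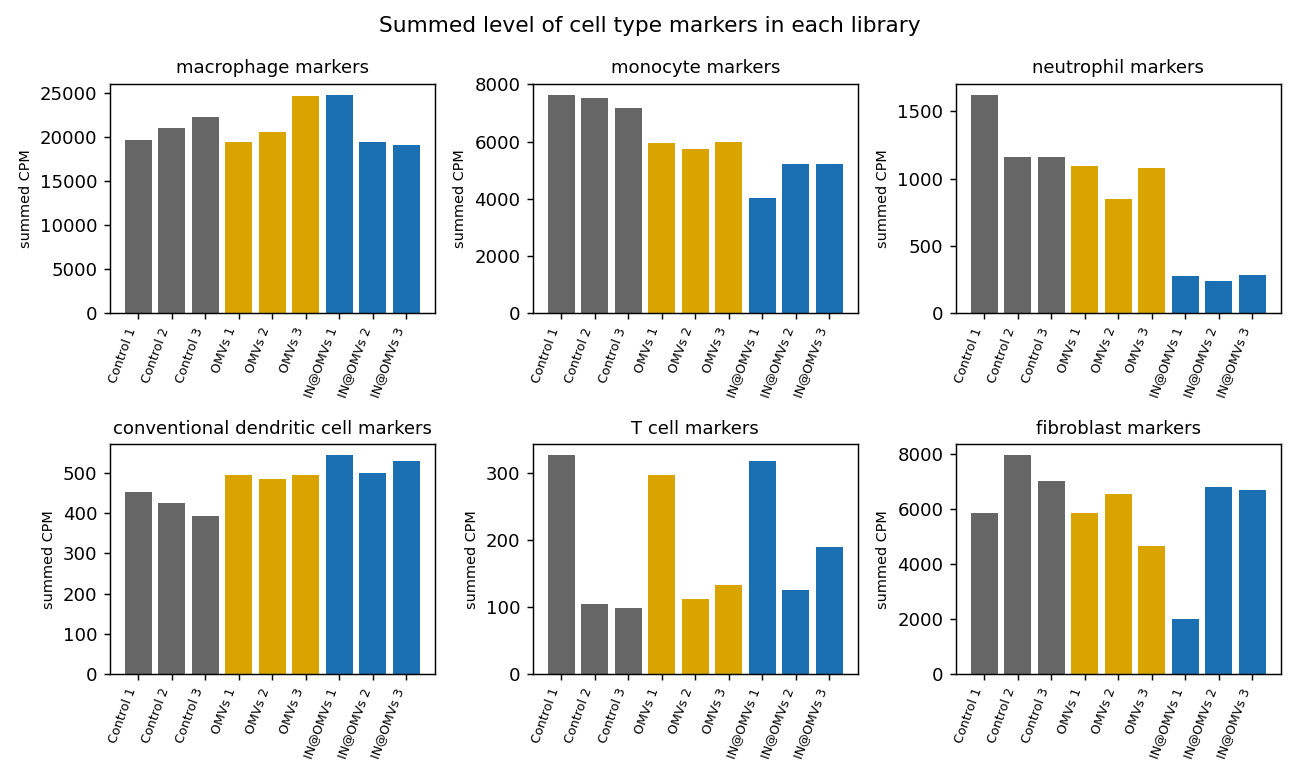
Bars give the summed CPM of each marker list in each of the 9 libraries, without TMM scaling. The 6 panels have axes from 0 (Control grey, OMVs yellow, IN@OMVs blue). Neutrophil markers are at 239 to 283 CPM in IN@OMVs and at least 1160 CPM in Control, macrophage markers overlap between the groups, and fibroblast markers are lowest in IN@OMVs 1.

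Both families of interferon-inducible GTPases were higher throughout. All 10 tested guanylate-binding proteins, which coat and disrupt vacuoles and bacteria in the cytosol, were called higher, with a median log2 fold change of 1.14. All 13 tested immunity-related GTPases, which act on the membranes of pathogen vacuoles, were called higher too, with a median of 1.22. Without IN@OMVs 1 the counts were again 10 and 13. OMVs libraries were also higher than Control in part of both families. In OMVs against Control, 4 of 10 guanylate-binding proteins and 6 of 13 immunity-related GTPases were called higher and 0 lower. The medians there were 0.56 and 0.55, and 0.42% of all genes were called.

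Gbp2b (also known as Gbp1) had the largest rise among the genes reported. It was at 2.56, 2.22 and 1.61 CPM in Control and 16.9, 12.3 and 14.5 CPM in IN@OMVs, a log2 fold change of 2.77 ± 0.20 (SE; adjusted p = 0.00012). OMVs libraries lay with Control for this gene, at 2.01, 2.33 and 2.51 CPM. Gbp4 was at 141, 114 and 112 CPM in Control and 342, 326 and 357 CPM in IN@OMVs (log2 fold change 1.48 ± 0.11), and Gbp6 at 141, 124 and 122 CPM in Control and 345, 312 and 335 CPM in IN@OMVs (1.36 ± 0.07, adjusted p = 3.2e-05). Gbp2, the most abundant of the family, was at 421, 345 and 347 CPM in Control and 955, 857 and 864 CPM in IN@OMVs (1.26 ± 0.09). For each of these 4 genes all IN@OMVs libraries lay above all Control libraries. Gbp3, Gbp5, Gbp7, Gbp8 and Gbp9 rose by 0.78 to 1.24 log2 units. Gbp10, the least certain, had a log2 fold change of 1.01 ± 0.23, with an adjusted p of 0.054 to 0.14 without Control 2, Control 3, IN@OMVs 2, IN@OMVs 3, OMVs 1 or OMVs 2 and 0.069 with the replicate block.

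Among the immunity-related GTPases, Iigp1, which disrupts parasite vacuoles, was at 179, 174 and 179 CPM in Control and 596, 533 and 560.2 CPM in IN@OMVs, a log2 fold change of 1.67 ± 0.09 (adjusted p = 3.7e-05). The T cell specific GTPases Tgtp2 (108, 101 and 99.9 CPM in Control, 331, 288 and 294 CPM in IN@OMVs) and Tgtp1 (36.3, 29.8 and 25.6 CPM, 73.5, 97.7 and 96.7 CPM) rose by 1.56 and 1.55. Irgm1, a regulator of the family, was at 135, 128 and 132 CPM in Control and 313, 290.0 and 299 CPM in IN@OMVs (1.19 ± 0.07). Igtp and Irgm2 rose by 1.24 and 1.11. Expected counts were fractional for most of these genes, whose copies resemble each other: left without fractional genes, 3 guanylate-binding proteins and 3 immunity-related GTPases could be tested, and all 6 were called higher.

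The transcription factors of the interferon response rose in part. Of 15 tested IRF and STAT factors, 6 were called higher and 0 lower (6 and 1 without IN@OMVs 1). Irf1, an early factor of the interferon gamma response, was at 171, 146 and 156 CPM in Control and 321, 275 and 303 CPM in IN@OMVs (0.93 ± 0.08, adjusted p = 0.00023). Stat2, which carries type I interferon signals, was at 147, 147 and 147 CPM in Control and 287, 233 and 243 CPM in IN@OMVs (0.79 ± 0.08). Both were called higher with every library left out in turn. Irf7, Irf8 and Irf2 were called as well, but each lost its call without Control 1, Control 2 or Control 3. The count of called factors was 3 each time. The adjusted p of Irf7 was 0.077 to 0.086 without Control 1, Control 2 or Control 3, and that of Irf8 0.053 to 0.15 without Control 1, Control 2, Control 3, OMVs 1 or OMVs 2 and 0.055 with the replicate block. Stat3, which carries IL-6 and IL-10 signals, was at 258 ± 20.1 CPM in Control and 239 ± 26.6 CPM in IN@OMVs, and Stat6, which carries IL-4 signals, at 254 ± 7.98 CPM in Control and 239 ± 25.6 CPM in IN@OMVs. Neither was called.

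Transcripts of the interferons and their receptors did not pass the test: edgeR called 0 of 13, with 2 at an unadjusted p under 0.05, and DESeq2 and limma-voom called 0 each. Without IN@OMVs 1, edgeR called 2 lower (Ifngr1 and Ifnlr1). Ifng was at 7.57, 1.46 and 1.04 CPM in Control and 8.07, 1.43 and 3.78 CPM in IN@OMVs, highest in the library numbered 1 of each group, as was the summed level of the T cell markers. Ifnb1 was below the filter on low counts.

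Of 34 tested antiviral interferon-stimulated genes, 22 were called higher and 0 lower (26 and 0 without IN@OMVs 1), with a median log2 fold change of 0.54. Ifit3, which binds foreign RNA together with its relatives, was at 97.0, 95.2 and 96.7 CPM in Control and 232, 175 and 183 CPM in IN@OMVs (1.03 ± 0.10, adjusted p = 0.00054). Isg15, a ubiquitin-like modifier, was at 59.7, 57.4 and 57.2 CPM in Control and 116, 94.3 and 96.4 CPM in IN@OMVs (0.81 ± 0.08). Ifit2, Usp18 and Zbp1 rose by 0.92, 0.86 and 0.81. Ifitm3, the most abundant of the list, was at 402, 364 and 386 CPM in Control and 466, 426 and 399 CPM in IN@OMVs, where the libraries overlapped, and was not called (adjusted p = 0.25). Ifitm3 shows that not every member of the list separated the groups.

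The promoters below are shown because these genes, all called higher, carry a match to the interferon-stimulated response element (ISRE), the site that IRF factors bind. The windows are 80 bases long and lie within the 250 bases upstream of the gene start, in RefSeq's GRCm38.p6, 5′ to 3′ on the strand of the gene. Capitals mark matches to GAAA, any 2 bases and a second GAAA, searched on both strands. Matches overlap each other in Irgm1 and Isg15.

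Gbp2b: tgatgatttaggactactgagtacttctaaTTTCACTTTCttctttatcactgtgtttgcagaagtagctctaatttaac

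Gbp2: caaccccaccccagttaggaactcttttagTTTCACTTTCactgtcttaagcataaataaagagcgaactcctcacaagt

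Irgm1: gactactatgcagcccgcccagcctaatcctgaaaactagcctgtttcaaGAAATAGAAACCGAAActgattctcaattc

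Tgtp2: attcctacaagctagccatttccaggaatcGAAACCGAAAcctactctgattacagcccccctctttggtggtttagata

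Isg15: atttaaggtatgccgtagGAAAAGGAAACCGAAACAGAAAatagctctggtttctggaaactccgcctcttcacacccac

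Cxcl10: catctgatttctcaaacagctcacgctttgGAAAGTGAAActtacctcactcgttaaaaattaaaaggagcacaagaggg

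They lie at chr3:142594680-142594759, plus strand for Gbp2b, chr3:142620574-142620653, plus strand for Gbp2, chr11:48871421-48871500, minus strand for Irgm1, chr11:49064233-49064312, minus strand for Tgtp2, chr4:156200835-156200914, minus strand for Isg15 and chr5:92349053-92349132, minus strand for Cxcl10. The match shown runs from -137 to -128 in Gbp2b, -59 to -50 in Gbp2 and -70 to -61 in Tgtp2, counted from -1 for the base before the start. Promoters were found by symbol for 10424 of the 13090 genes tested, and some genes had several. A match within 250 bases upstream was held by 2.98% of all 32851 promoters in the table and 2.81% of those of tested genes. Among promoters of genes called higher the share was 12.0% (52 of 435), and of genes called lower 2.57% (11 of 428). It was 5 of 6 promoters for the guanylate-binding proteins, 6 of 9 for the immunity-related GTPases and 11 of 30 for the antiviral genes. The second interferon motif, the gamma-activated site TTCNNNGAA of the interferon gamma response, was held by 8.97% of promoters of genes called higher, 8.88% of genes called lower and 6.02% of genes tested. One of the Irf1 promoters holds it at -90 to -82, within chr11:53769894-53769973, plus strand:

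Irf1: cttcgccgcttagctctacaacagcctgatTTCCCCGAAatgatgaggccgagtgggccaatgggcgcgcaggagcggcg

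These matches describe letters in a window. Binding was not measured, and a part of these sites in the changes was not tested.

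Antigen presentation genes rose moderately. In the class I list, which holds the heavy chains, the peptide transporter and the immunoproteasome, 15 of 24 tested genes were called higher and 0 lower (16 and 0 without IN@OMVs 1; median log2 fold change 0.52). Members called higher numbered 9 without Control 2 or Control 3. Nlrc5, the transactivator of class I genes, was at 153, 125 and 125 CPM in Control and 260.1, 225 and 244 CPM in IN@OMVs (0.86 ± 0.09, adjusted p = 0.00082). Tap2, a subunit of the transporter that loads peptides, was at 142, 134 and 131 CPM in Control and 229, 199.5 and 202 CPM in IN@OMVs (0.63 ± 0.06). The classical heavy chain H2-D1 was at 2736, 2629 and 2747 CPM in Control and 3625, 3167 and 3030.1 CPM in IN@OMVs. Its libraries did not overlap, yet it was not called (0.28 ± 0.08, adjusted p = 0.088).

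In the class II list 7 of 19 tested genes were called higher and 0 lower, with or without IN@OMVs 1. Higher calls came to 4 without Control 2 or Control 3. Ciita, the transactivator of class II genes, was at 78.4, 72.3 and 63.6 CPM in Control and 154, 122 and 121 CPM in IN@OMVs (0.89 ± 0.12, adjusted p = 0.0024). H2-Aa, a class II alpha chain, was at 1707, 1691 and 1569 CPM in Control and 3623, 2714 and 2673 CPM in IN@OMVs (0.86 ± 0.14), and H2-DMb1, which helps to load peptides, at 194, 182 and 173 CPM in Control and 371, 269 and 281 CPM in IN@OMVs (0.75 ± 0.12). IN@OMVs 1 was the highest library for all 3 genes, and without it their log2 fold changes were 0.76, 0.70 and 0.58. Cd74, the invariant chain, was at 3611, 3532 and 3316 CPM in Control and 7198, 5156 and 4882 CPM in IN@OMVs (0.72 ± 0.14, adjusted p = 0.019). Its adjusted p was 0.065 to 0.10 without Control 1, Control 2 or Control 3. The general factors Rfx5, Rfxap and Rfxank lay between -0.06 and 0.03 on the log2 scale and were not called. Dendritic cells also express class II genes, and 3 of their 14 markers were higher (392 to 452 CPM summed in Control, 499 to 544 CPM in IN@OMVs). Their part in the result was not tested.

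Among costimulators and checkpoint ligands 3 of 20 were called higher and 0 lower (3 and 1 without IN@OMVs 1). The 3 calls were 15% of the list, against 6.55% of all genes. The number called higher was 1 without Control 3. Pdcd1lg2, which encodes the PD-1 ligand PD-L2, was at 11.3, 8.54 and 7.49 CPM in Control and 35.1, 32.7 and 41.3 CPM in IN@OMVs, a log2 fold change of 2.00 ± 0.16 (adjusted p = 0.00023). Cd274, which encodes the other PD-1 ligand, PD-L1, was at 154, 139.9 and 136 CPM in Control and 227, 173 and 215 CPM in IN@OMVs (0.52 ± 0.12, adjusted p = 0.041). The adjusted p was 0.072 to 0.17 without Control 1, Control 2, Control 3, IN@OMVs 3 or OMVs 2 and 0.08 with the replicate block. Cd40, the receptor for T cell help, was at 27.7, 24.9 and 24.8 CPM in Control and 66.4, 42.9 and 46.0 CPM in IN@OMVs (1.01 ± 0.17, adjusted p = 0.0086, and 0.053 without Control 3). The costimulator Cd86 was at 111, 101 and 105 CPM in Control and 157, 115 and 120.4 CPM in IN@OMVs and was not called (adjusted p = 0.27).

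Chemokines that attract T cells went both ways. Cxcl9, a CXCR3 ligand induced by interferon gamma, was at 443, 418 and 433 CPM in Control and 1179, 908 and 917 CPM in IN@OMVs (1.22 ± 0.14, adjusted p = 0.0012). Cxcl10, another CXCR3 ligand, was at 221, 196 and 207 CPM in Control and 474, 376 and 389.6 CPM in IN@OMVs (0.99 ± 0.12). For both, every IN@OMVs library lay above every Control library. Cxcl13, which attracts B cells and follicular T cells, was at 9.30, 14.4 and 14.3 CPM in Control and 2.83, 0.741 and 0.699 CPM in IN@OMVs (-3.16 ± 0.48). Ccl5, which attracts T cells and monocytes, was at 132, 132 and 133 CPM in Control and 103, 76.4 and 77.8 CPM in IN@OMVs (-0.63 ± 0.13, adjusted p = 0.023). Its adjusted p was 0.07 to 0.094 without Control 1, Control 2, Control 3, IN@OMVs 2 or IN@OMVs 3 and 0.051 with the replicate block. In all, 2 of 5 tested members were called higher and 2 lower, with the same counts without IN@OMVs 1. Called lower were 1 without Control 1, Control 2, Control 3, IN@OMVs 2 or IN@OMVs 3 and with the replicate block.

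Of 12 CC chemokines that recruit monocytes and other cells, 3 were called higher (Ccl12, Ccl8 and Ccl7) and 0 lower, and 3 and 3 without IN@OMVs 1. The count called higher was 0 without Control 1 or Control 2, 1 without Control 3, IN@OMVs 2, IN@OMVs 3 or OMVs 2, and 5 without OMVs 1. With the replicate block the counts were 2 and 1, and the adjusted p of Ccl7 was 0.083. Ccl12, a CCR2 ligand, was at 46.1, 51.6 and 57.0 CPM in Control and 162, 101 and 116 CPM in IN@OMVs (1.29 ± 0.22, adjusted p = 0.01, and 0.051 to 0.052 without Control 1 or Control 2). Ccr2 itself was at 674, 677 and 615 CPM in Control and 636, 444 and 469 CPM in IN@OMVs, where the groups overlapped, and was not called (-0.34 ± 0.13, adjusted p = 0.19). Without IN@OMVs 1 it was lower (-0.53, adjusted p = 0.0031).

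**Figure D3:**
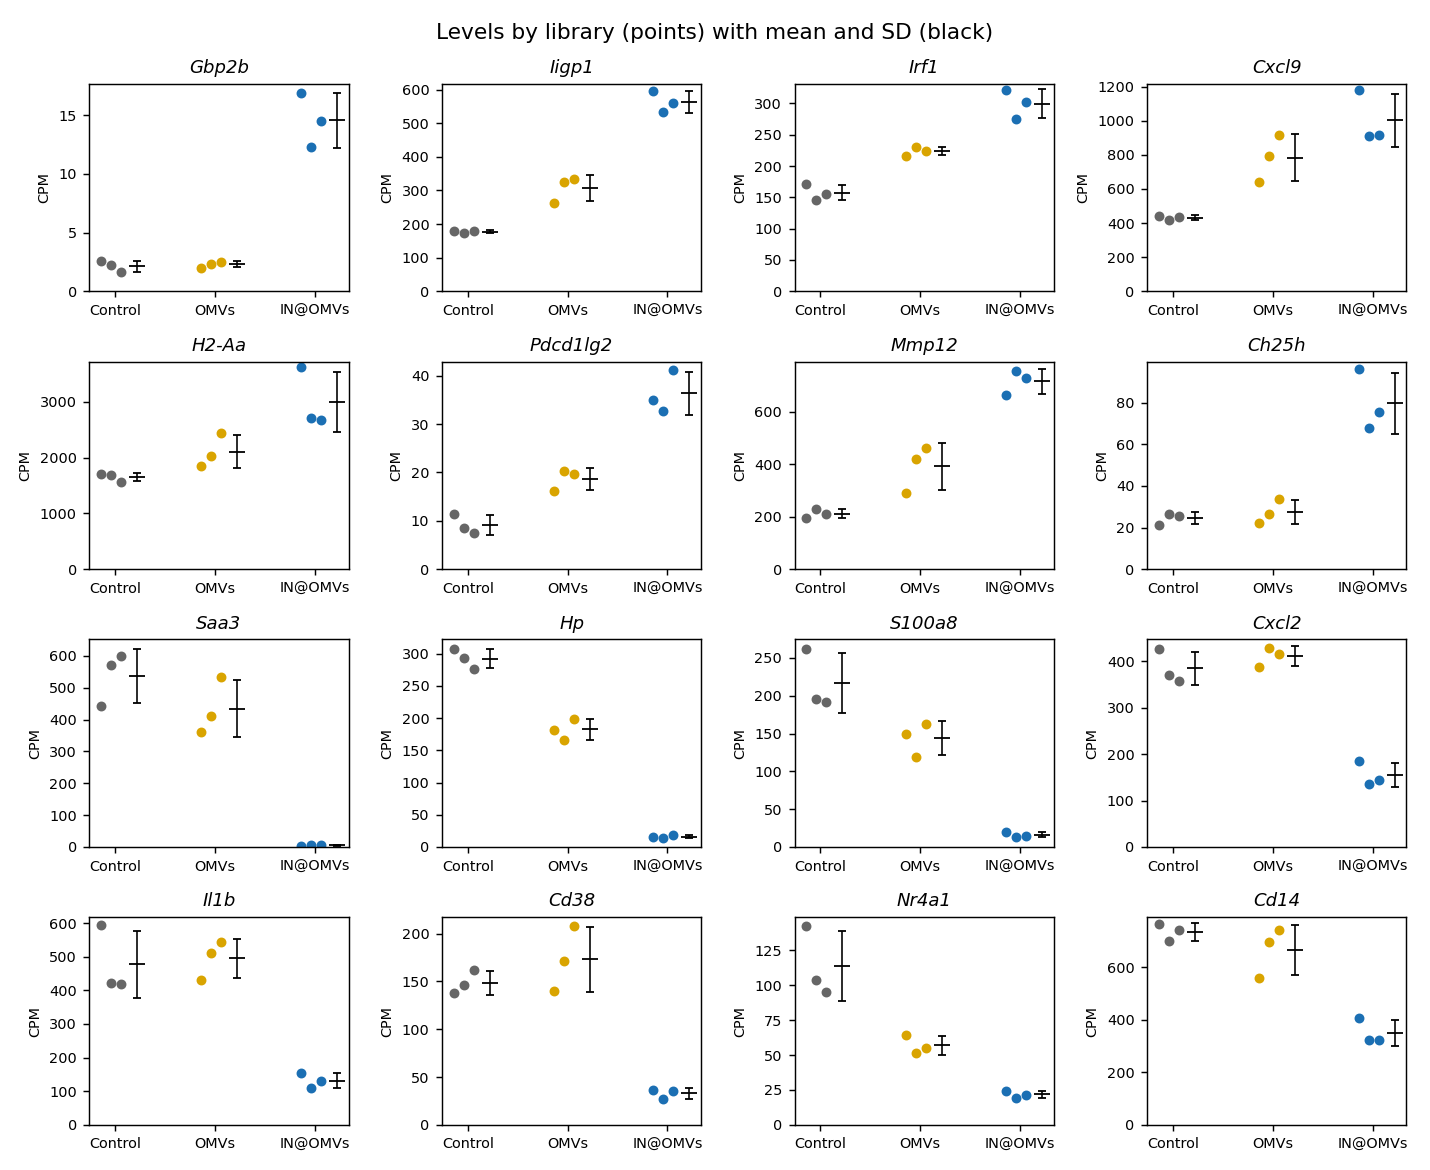
Points give the CPM of 16 genes in each library, with the mean and SD (n = 3) in black beside them and axes from 0. In the top 2 rows of panels, all IN@OMVs libraries lie above all Control libraries, and in the lower 2 rows all lie below them, while the OMVs libraries lie with Control for Gbp2b, Ch25h, Cxcl2, Il1b and Cd38.

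The deepest falls were in acute phase proteins and genes of neutrophil granules. Of 7 tested acute phase proteins 5 were called lower and 0 higher (6 and 0 without IN@OMVs 1), with a median log2 fold change of -4.04. Saa3, the serum amyloid A made by macrophages, was at 442, 572 and 598 CPM in Control and 4.37, 6.84 and 7.28 CPM in IN@OMVs, a log2 fold change of -6.44 ± 0.25 (adjusted p = 5.9e-06). Hp, which encodes haptoglobin, the scavenger of free haemoglobin, was at 307, 293 and 277 CPM in Control and 15.2, 14.4 and 18.1 CPM in IN@OMVs (-4.20 ± 0.11, adjusted p = 3.5e-07). Lcn2, the iron-siderophore binding protein lipocalin 2, was at 137, 116 and 112 CPM in Control and 8.99, 6.56 and 6.64 CPM in IN@OMVs (-4.04 ± 0.17). All 3 were lower in every IN@OMVs library, and their log2 fold changes stayed between -6.57 and -3.95 whichever library was left out. Saa1 had 21, 37 and 29 expected counts in Control and 0 in each IN@OMVs library. Against a floor of 3 counts over the summed IN@OMVs libraries it was at least 29.1-fold lower. Cp, which encodes the ferroxidase ceruloplasmin, had a log2 fold change of -1.08 ± 0.10.

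Genes of neutrophil granules and surface fell with them. Ngp, a granule protein, was at 29.8, 16.5 and 16.7 CPM in Control and 0.369, 0.114 and 0 CPM in IN@OMVs (-7.00 ± 0.58). The calprotectin subunits S100a8 (262, 196 and 191 CPM in Control, 20.1, 13.6 and 14.5 CPM in IN@OMVs) and S100a9 (447, 276 and 278 CPM, 34.2, 17.7 and 19.96 CPM) had log2 fold changes of -3.75 and -3.80. Mmp8, neutrophil collagenase, was at 115, 85.4 and 80.2 CPM in Control and 18.2, 17.4 and 16.4 CPM in IN@OMVs (-2.43 ± 0.15). Retnlg, Lrg1, Asprv1, Steap4, Cd177, Ifitm6 and Chil1 also belong to the 15 largest falls, from -5.15 for Retnlg to -2.96 for Chil1. OMVs libraries stayed nearer to Control, with S100a8 at 149.8, 119 and 163 CPM and Ngp at 23.7, 12.4 and 16.97 CPM. S100a8, S100a9, Ngp, Retnlg, Mmp8 and Lcn2 are themselves on the neutrophil list. Its sum of at least 1160 CPM in Control and at most 283 CPM in IN@OMVs is given above. Hp, Cd177 and Chil3 are on the monocyte list, where Cd177 was counted although it is grouped here with neutrophil genes. The part of these cells in the falls was not tested.

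**Figure D4:**
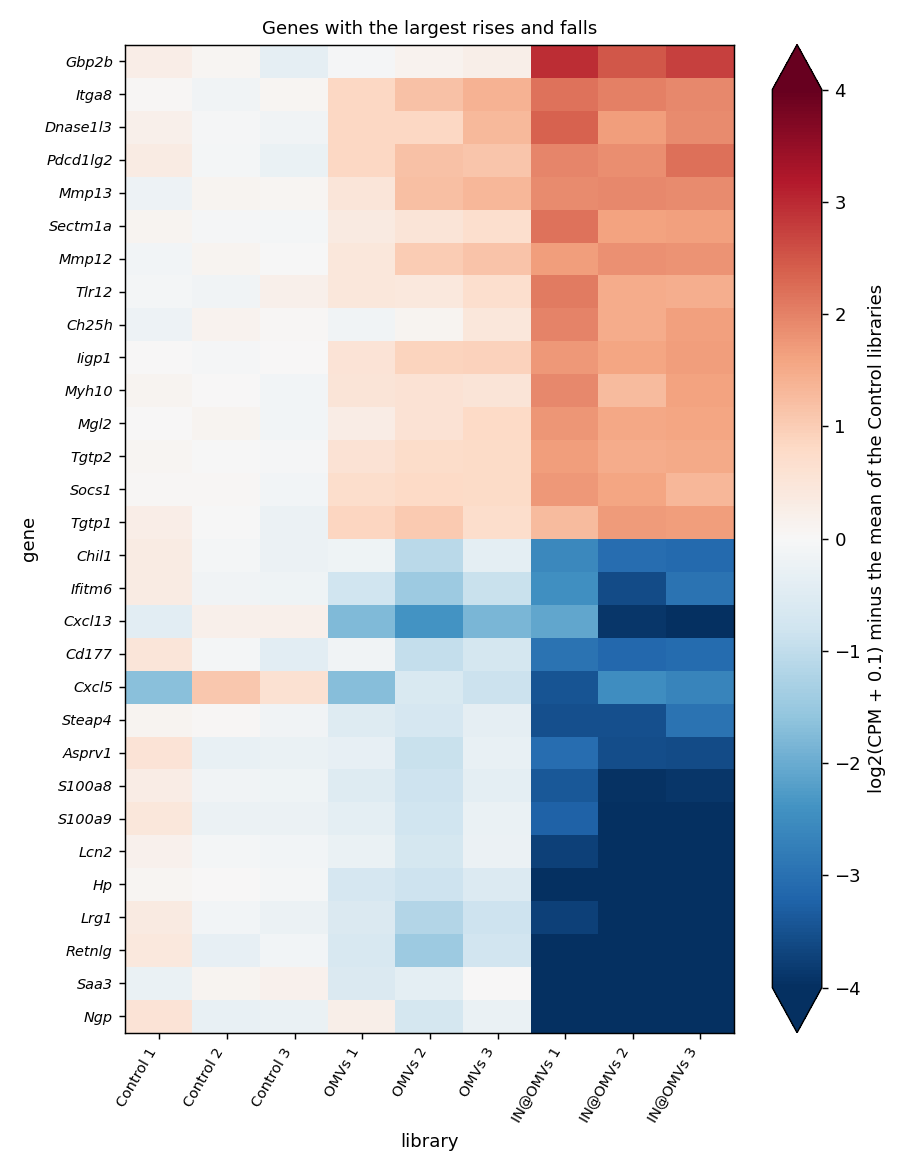
The heat map shows, for the 15 largest rises and 15 largest falls of the naming rule, log2(CPM + 0.1) in each of 9 libraries minus the mean of the Control libraries, with colours limited at 4 log2 units in either direction. The 3 IN@OMVs columns are red throughout the upper rows and blue throughout the lower rows, and Cxcl5 varies within Control.

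Chemokines that recruit neutrophils fell too. Of 9 tested neutrophil chemokines and growth factors 5 were called lower and 0 higher (5 and 1 without IN@OMVs 1), with a median of -1.31. Cxcl2, a ligand of CXCR2, was at 426, 370.4 and 358 CPM in Control and 185, 136 and 143 CPM in IN@OMVs (-1.31 ± 0.12, adjusted p = 0.00044). Cxcl3 was at 152, 132 and 141 CPM in Control and 76.1, 68.6 and 68.3 CPM in IN@OMVs (-0.997 ± 0.09), and Cxcl1 at 26.0 ± 1.58 CPM in Control and 9.02 ± 1.41 CPM in IN@OMVs (-1.53 ± 0.22). Csf3, which encodes the neutrophil growth factor G-CSF, was at 5.19, 4.91 and 6.68 CPM in Control and 0.554, 0.798 and 0.640 CPM in IN@OMVs (-3.06 ± 0.25). Cxcl5 had the least even Control values, 2.38, 16.4 and 11.8 CPM, against 0.616, 1.31 and 1.16 CPM in IN@OMVs (-3.29 ± 0.67, adjusted p = 0.022, and 0.059 to 0.081 without Control 2, Control 3, IN@OMVs 2 or IN@OMVs 3). Among 16 chemokine receptors 4 were called lower and 0 higher (6 and 0 without IN@OMVs 1). They include Cxcr2, at 44.3, 27.2 and 28.8 CPM in Control and 7.57, 4.11 and 4.89 CPM in IN@OMVs (-2.60 ± 0.26), and the formyl peptide receptors Fpr1 (38.4, 40.6 and 47.7 CPM in Control, 9.05, 7.41 and 8.44 CPM in IN@OMVs) and Fpr2 (-0.93 ± 0.12), which sense bacterial peptides. Cxcr2 is one of the neutrophil markers described above.

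For Cxcl1, Cxcl2 and Il6, 3 genes that fell, the promoter windows below show in capitals the matches to the NF-kB consensus, searched on both strands. The match on one strand and that on the other overlap in Cxcl1 and Cxcl2.

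Cxcl1: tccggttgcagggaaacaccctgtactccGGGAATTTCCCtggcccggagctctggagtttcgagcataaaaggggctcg

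Cxcl2: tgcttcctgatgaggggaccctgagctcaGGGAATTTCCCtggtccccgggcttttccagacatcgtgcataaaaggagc

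Il6: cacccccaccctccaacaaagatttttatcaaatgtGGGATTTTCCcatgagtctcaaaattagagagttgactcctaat

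These windows lie at chr5:90891145-90891224, plus strand for Cxcl1, chr5:90903773-90903852, plus strand for Cxcl2 and chr5:30013034-30013113, plus strand for Il6, in the same build. The consensus was held by 12.4% of promoters of genes called lower, 9.43% of genes called higher and 8.94% of genes tested, and by 7.25% of all promoters. It was found in 11 of 25 promoters of the NF-kB list, 10 of 22 of the class I list, whose calls were all higher, and 0 of 6 of the acute phase proteins. No match was found within 250 bases upstream of Saa3.

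Cytokines of the IL-1 and IL-6 families fell. Of 18 tested members 7 were called lower and 1 higher (8 and 1 without IN@OMVs 1). Il1b, the secreted pyrogen made as a precursor, was at 593, 420.5 and 418 CPM in Control and 155, 110.01 and 129.7 CPM in IN@OMVs (-1.86 ± 0.17, adjusted p = 0.00049). Il6 was at 5.13, 5.61 and 5.24 CPM in Control and 0.616, 0.171 and 0.582 CPM in IN@OMVs (-3.53 ± 0.34), and Osm, an IL-6 relative, at 169, 129.7 and 121 CPM in Control and 58.4, 45.3 and 44.3 CPM in IN@OMVs (-1.50 ± 0.14). Il1a and the decoy receptor Il1r2 had log2 fold changes of -1.46 ± 0.15 and -1.82 ± 0.21. For all 5 the IN@OMVs libraries were below every Control library. Il18bp, which binds and blocks IL-18, was the 1 member that rose, from 29.6, 32.8 and 34.8 CPM in Control to 67.5, 53.3 and 54.0 CPM in IN@OMVs (0.85 ± 0.12). Neutrophils also make IL-1 and its decoy receptor, and 12 of 13 neutrophil markers were lower as well. Their part in these falls was not tested.

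Of 18 tested members of the TNF, IL-12 and IL-10 families, 2 were called higher and 1 lower (2 and 3 without IN@OMVs 1). Calls made up 16.7% of this list, against 6.55% of all genes. Members called higher numbered 1 without Control 3. Lower calls came to 0 without Control 1, Control 2, IN@OMVs 2, IN@OMVs 3, OMVs 1, OMVs 2 or OMVs 3 and with the replicate block. Il15, a growth factor for NK and memory T cells, was at 12.3, 9.88 and 11.1 CPM in Control and 21.2, 17.1 and 17.8 CPM in IN@OMVs (0.75 ± 0.12, adjusted p = 0.0063), and Il15ra, which presents it, rose by 0.47 ± 0.08, with an adjusted p of 0.0502 without Control 3. Tnf was at 29.2, 27.1 and 24.1 CPM in Control and 44.2, 28.9 and 30.2 CPM in IN@OMVs, where the groups overlapped, and was not called (adjusted p = 0.27). Il12b was at 3.16, 1.40 and 1.33 CPM in Control and 4.37, 2.97 and 4.42 CPM in IN@OMVs and was not called either. Il10, the main anti-inflammatory cytokine of macrophages, was at 3.16, 3.22 and 2.71 CPM in Control and 3.88, 1.31 and 1.46 CPM in IN@OMVs (adjusted p = 0.57). IN@OMVs 1 was its highest library, and without it Il10 was lower (-1.13, adjusted p = 0.0087).

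Of 26 receptors for bacterial products and their regulators, 3 were called higher and 2 lower (3 and 7 without IN@OMVs 1). That was 19.2% called, against 6.55% of all genes. Cd14, the co-receptor that hands lipopolysaccharide to TLR4, was at 762, 698 and 739 CPM in Control and 406, 321 and 322 CPM in IN@OMVs (-1.07 ± 0.12, adjusted p = 0.0012). Tlr4 itself was at 154, 153 and 163 CPM in Control and 208, 171 and 179 CPM in IN@OMVs and was not called (adjusted p = 0.18). Irak3, an inhibitory kinase of the pathway, was at 57.2, 57.6 and 56.9 CPM in Control and 37.2, 25.3 and 29.5 CPM in IN@OMVs (-0.90 ± 0.13). Tlr12 and Tlr11, receptors for profilin, rose from low levels: Tlr12 was at 3.58, 3.39 and 4.32 CPM in Control and 16.0, 10.7 and 10.54 CPM in IN@OMVs (1.72 ± 0.20), and Tlr11 had a log2 fold change of 1.63 ± 0.24. The third rise, of Tlr3, had an adjusted p of 0.054 to 0.055 without Control 2 or Control 3. Of 18 inflammasome and noncanonical sensing genes, 2 were called higher (Nlrp1b and Txnip) and 0 lower, and 2 and 3 without IN@OMVs 1. The 2 calls were 11.1% of that list, against 6.55% of all genes. The number called higher was 0 without Control 1, Control 2 or Control 3, and 1 without IN@OMVs 3 or OMVs 2 and with the replicate block. The call lost with the block was that of Nlrp1b (adjusted p = 0.055).

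In the list of NF-kB subunits, inhibitors and feedback genes, 4 of 25 were called lower and 0 higher, with a median of -0.14. Without IN@OMVs 1, 10 were called lower. Called lower were 0 without IN@OMVs 3, 1 without Control 2 or IN@OMVs 2, and 2 without Control 1 or Control 3. Tnfaip3, which encodes the feedback inhibitor A20, was at 207, 159 and 150.2 CPM in Control and 125, 87.4 and 99.7 CPM in IN@OMVs (-0.73 ± 0.15, adjusted p = 0.021, and 0.054 to 0.083 without Control 1, Control 2, IN@OMVs 2 or IN@OMVs 3). The subunits Rela, Nfkb1, Rel and Relb had log2 fold changes from -0.21 to -0.02 and were not called. Feedback inhibitors of cytokine signalling split. Socs1, which dampens interferon signalling, was at 11.4, 11.2 and 10.2 CPM in Control and 36.2, 32.8 and 27.6 CPM in IN@OMVs (1.56 ± 0.11, adjusted p = 0.0001), and Socs3, which dampens IL-6 signalling, at 474, 445 and 424 CPM in Control and 271, 215 and 218 CPM in IN@OMVs (-0.93 ± 0.10, adjusted p = 0.001). The other 6 members of the SOCS family were not called.

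Early response factors were mostly lower where they changed. Of 25 tested, 10 were called lower and 1 higher (11 and 2 without IN@OMVs 1). The count called higher was 0 without Control 1, Control 2, Control 3, IN@OMVs 3, OMVs 2 or OMVs 3 and with the replicate block. Nr4a1, a nuclear receptor needed by patrolling monocytes that is also on the monocyte list (10 of 14 lower), was at 142, 104 and 95.1 CPM in Control, 64.2, 51.3 and 55.1 CPM in OMVs and 24.5, 19.5 and 21.7 CPM in IN@OMVs (-2.38 ± 0.17 against Control, adjusted p = 0.0001). The part of monocytes in this fall was not tested. Fosb, an AP-1 subunit, was at 162, 147 and 134 CPM in Control and 57.4, 37.0 and 38.9 CPM in IN@OMVs (-1.73 ± 0.16). Egr1 and the antiproliferative Btg2 had log2 fold changes of -1.22 ± 0.18 and -1.14 ± 0.13. Dusp1, a phosphatase that ends MAP kinase signals, was at 759.7, 672 and 653 CPM in Control and 403, 321 and 328 CPM in IN@OMVs (-0.99 ± 0.10). Fos was at 1218, 1171 and 1089.6 CPM in Control and 853, 499 and 510.2 CPM in IN@OMVs (-0.90 ± 0.19), with an adjusted p of 0.062 to 0.083 without Control 1, Control 2, Control 3, IN@OMVs 2 or IN@OMVs 3.

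Lectin and scavenger receptors changed in both directions, with 6 of 26 called higher and 5 lower (7 and 7 without IN@OMVs 1). Members called lower numbered 3 without Control 2, Control 3, IN@OMVs 2 or IN@OMVs 3. Mgl2, a galactose-type lectin, was at 60.9, 65.2 and 55.8 CPM in Control and 208, 175 and 180.4 CPM in IN@OMVs (1.63 ± 0.13, adjusted p = 0.00017). Cd36, which takes up oxidised lipids, was at 28.8, 40.3 and 46.9 CPM in Control and 90.5, 87.9 and 93.0 CPM in IN@OMVs (1.23 ± 0.18), and Clec7a, the beta-glucan receptor dectin-1, at 294, 252 and 231 CPM in Control and 477, 418 and 422 CPM in IN@OMVs (0.76 ± 0.11). Clec4e, the glycolipid receptor Mincle, was at 266, 226 and 228 CPM in Control and 134, 108 and 114 CPM in IN@OMVs (-1.01 ± 0.12). The haptoglobin-haemoglobin receptor Cd163 was at 10.4, 16.1 and 17.9 CPM in Control, 2.41, 2.22 and 5.14 CPM in OMVs and 2.71, 2.57 and 2.79 CPM in IN@OMVs (-2.46 ± 0.33 against Control), while Lyve1, a hyaluronan receptor of resident macrophages, was at 6.20, 9.30 and 11.2 CPM in Control, 1.44, 1.69 and 2.99 CPM in OMVs and 2.09, 1.48 and 2.33 CPM in IN@OMVs (-2.17 ± 0.33). For both, each OMVs and IN@OMVs library lay below each Control library. OMVs and Control libraries did not overlap for 19.8% of all genes. Mrc1, the mannose receptor, was at 838, 929 and 1000.3 CPM in Control and 1251, 909.8 and 1011 CPM in IN@OMVs and was not called (adjusted p = 0.58).

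Of 20 genes known from alternative activation by IL-4, 3 were called higher and 2 lower (5 and 4 without IN@OMVs 1). The log2 fold change was positive for 15 of the 20, with a median of 0.27. Against OMVs, 6 were called higher and 0 lower (6 and 1 without IN@OMVs 1), and 3 higher without IN@OMVs 3 or OMVs 1. In the comparison with Control, higher calls came to 5 without OMVs 1. The number called lower against Control was 1 without Control 2, Control 3, IN@OMVs 2, IN@OMVs 3 or OMVs 2. The 3 called higher against Control were Pdcd1lg2, Mgl2 and Clec10a, with an adjusted p for Clec10a of 0.06 to 0.10 without Control 2, Control 3 or IN@OMVs 3. Chil3, a secreted chitinase-like protein that monocytes also make, was at 402, 325 and 285 CPM in Control, 169.8, 121 and 156 CPM in OMVs and 131, 118 and 134 CPM in IN@OMVs (-1.40 ± 0.15 against Control, adjusted p = 0.00087). Arg1, the arginase of alternatively activated macrophages, was at 1419, 1567 and 1721 CPM in Control and 1873, 1776 and 1809 CPM in IN@OMVs and was not called (0.21 ± 0.13, adjusted p = 0.43). Among 21 efferocytosis and SLAM receptors 3 were called higher and 0 lower (3 and 3 without IN@OMVs 1). These 3 were 14.3% of the receptors, against 6.55% of all genes. Slamf8 was at 47.1, 42.3 and 41.8 CPM in Control and 143, 115 and 112 CPM in IN@OMVs (1.49 ± 0.11), and Slamf7, a homophilic receptor, at 37.3, 33.9 and 35.7 CPM in Control and 97.0, 69.5 and 76.3 CPM in IN@OMVs (1.18 ± 0.14).

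Enzymes of arginine, tryptophan and NAD metabolism were called lower in 4 of 27 and higher in 1 (6 and 3 without IN@OMVs 1). Called higher were 0 without Control 2 or Control 3, and 2 without OMVs 1 and with the replicate block. The count called lower was 2 without Control 1, Control 2, Control 3, IN@OMVs 2, OMVs 2 or OMVs 3. Cd38, an NAD-consuming ectoenzyme induced in inflammatory macrophages, was at 138, 146 and 162 CPM in Control, 140.4, 171 and 208 CPM in OMVs and 36.8, 26.6 and 35.4 CPM in IN@OMVs (-2.18 ± 0.17 against Control, adjusted p = 0.00014). Arg2, the mitochondrial arginase, was at 22.4, 20.6 and 19.4 CPM in Control and 10.8, 8.90 and 10.1 CPM in IN@OMVs (-1.06 ± 0.13). Nos2, the inducible nitric oxide synthase, was at 270.4, 237 and 244 CPM in Control and 183, 188 and 188 CPM in IN@OMVs. All its IN@OMVs libraries were below Control, but it was not called (-0.43 ± 0.15, adjusted p = 0.16). Ido1, which degrades tryptophan, was at 0.656, 1.40 and 0.807 CPM in Control and 1.17, 2.85 and 1.69 CPM in IN@OMVs and was not called. Ptgs2, the inducible cyclooxygenase, was the 1 gene of 22 in the prostaglandin and leukotriene list that was called, at 222, 197 and 186 CPM in Control and 117, 97.2 and 103 CPM in IN@OMVs (-0.94 ± 0.11, adjusted p = 0.0014). The 1 call was 4.5% of that list, against 6.55% of all genes. Without IN@OMVs 1, 7 genes of that list were called lower. Members called lower numbered 2 without OMVs 1 or OMVs 3.

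Matrix enzymes and angiogenic factors were called higher in 5 of 40 and lower in 8 (6 and 12 without IN@OMVs 1). Higher calls came to 3 without Control 1, Control 2, Control 3 or IN@OMVs 3. Mmp12, the macrophage elastase, was at 194, 229 and 211 CPM in Control, 292, 422 and 462 CPM in OMVs and 665, 756 and 731 CPM in IN@OMVs (1.76 ± 0.16 against Control, adjusted p = 0.00037). Mmp13, a collagenase, was at 24.9, 31.3 and 30.6 CPM in Control and 107, 109 and 107 CPM in IN@OMVs (1.90 ± 0.20), and Plau, which activates plasminogen, at 92.5, 100.3 and 109.5 CPM in Control and 245, 185 and 189 CPM in IN@OMVs (1.03 ± 0.14). Thbs1, which encodes the antiangiogenic thrombospondin 1, was at 1544, 1303 and 1378 CPM in Control and 722, 610.4 and 655 CPM in IN@OMVs (-1.09 ± 0.12). F13a1, a transglutaminase of monocytes and macrophages, was at 684, 708 and 802 CPM in Control and 298, 275 and 285 CPM in IN@OMVs (-1.35 ± 0.13), and Mmp9 at 261 ± 44.2 CPM in Control and 102 ± 22.4 CPM in IN@OMVs (-1.36 ± 0.18). F13a1 is in the monocyte list and Mmp8 and Mmp9 in the neutrophil list, and the part of those cells was not tested. Vegfa was called higher (0.65 ± 0.14), with an adjusted p of 0.082 to 0.12 without Control 1, Control 2, Control 3, IN@OMVs 2 or IN@OMVs 3.

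In the list of lipid-associated macrophage and oxysterol genes 5 of 29 were called higher and 1 lower (5 and 4 without IN@OMVs 1). The number called higher was 3 without Control 2 or Control 3. Called lower were 2 without OMVs 1. Ch25h, which makes the antiviral oxysterol 25-hydroxycholesterol, was at 21.3, 26.7 and 25.4 CPM in Control, 22.1, 26.5 and 33.7 CPM in OMVs and 96.1, 67.7 and 75.5 CPM in IN@OMVs (1.70 ± 0.18 against Control, adjusted p = 0.00071). Gpnmb and Lgals3, both found in lipid-laden macrophages, rose by 1.10 ± 0.13 and 0.63 ± 0.08. Apoe, Trem2 and Spp1 were not called, with adjusted p of 0.75, 0.44 and 0.60. Other members of the 15 largest rises were Itga8, an integrin chain (2.15, 1.87 and 2.19 CPM in Control, 9.73, 8.67 and 8.03 CPM in IN@OMVs), Dnase1l3, a secreted nuclease that digests DNA on microparticles (7.27, 6.14 and 5.70 CPM, 33.2, 20.5 and 23.7 CPM), Sectm1a (1.83 ± 0.16) and Myh10, a nonmuscle myosin (1.65 ± 0.18).

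Haem and iron genes went both ways. Hmox1, the haem-degrading enzyme, was at 313, 421 and 469.9 CPM in Control and 928, 826 and 811 CPM in IN@OMVs (1.09 ± 0.18, adjusted p = 0.0072), and the iron exporter Slc40a1 at 5.66, 5.73 and 6.57 CPM in Control and 10.3, 12.4 and 11.6 CPM in IN@OMVs (0.93 ± 0.18), the latter with an adjusted p of 0.0503 to 0.074 without Control 1, Control 2, IN@OMVs 2 or IN@OMVs 3. The transferrin receptor Tfrc fell (-0.57 ± 0.08), as did Hp, Cd163, Cp, Steap4 and Lcn2 above. In all, 4 of 23 were called higher and 6 lower, with the same counts without IN@OMVs 1. The count called higher was 1 without Control 1 or Control 2, and 2 without Control 3 or IN@OMVs 2. Of 27 NRF2 targets and glutathione enzymes 6 were called higher and 2 lower (9 and 4 without IN@OMVs 1). Members called higher numbered 3 without Control 1, Control 2, Control 3, IN@OMVs 2 or IN@OMVs 3 and with the replicate block. Lower calls came to 1 without Control 2, Control 3, IN@OMVs 2 or IN@OMVs 3. Prdx1, a peroxide reductase, was at 416, 436 and 461 CPM in Control and 632, 607 and 615 CPM in IN@OMVs (0.50 ± 0.08), while Gsr, glutathione reductase, was at 155, 137 and 139 CPM in Control and 56.6, 63.0 and 60.7 CPM in IN@OMVs (-1.25 ± 0.07, adjusted p = 3.7e-05).

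Calls among stress and sterol genes were in the higher direction in the main fit. Higher calls numbered 8 of 25 for the integrated stress response (12 without IN@OMVs 1), 4 of 22 for heat shock chaperones (7), 4 of 22 for the unfolded protein response (5) and 8 of 27 for cholesterol and fatty acid synthesis (11), with 0 lower calls in each of these lists and 1 in the integrated stress response without IN@OMVs 1. For the integrated stress response, the count called higher was 2 without Control 2, 3 without Control 1 or IN@OMVs 2, and 4 without Control 3 or IN@OMVs 3. For heat shock chaperones, the count called higher was 2 without Control 2, Control 3 or IN@OMVs 3. That list had 1 called lower without IN@OMVs 3, and also with DESeq2, limma-voom or the filter at 5 CPM. For the unfolded protein response, the count called higher was 1 without Control 3, and 2 without Control 1 or Control 2. For cholesterol and fatty acid synthesis, the count called higher was 3 without Control 2 or Control 3, 4 without Control 1 or IN@OMVs 2, and 5 without IN@OMVs 3, OMVs 2 or OMVs 3 and with the replicate block. The largest rises among these lists were those of Chac1, which degrades glutathione, at 2.21, 1.93 and 2.36 CPM in Control and 3.20, 7.98 and 7.57 CPM in IN@OMVs (1.53 ± 0.33), and of Trib3, a pseudokinase, at 5.30, 6.20 and 4.96 CPM in Control and 7.51, 15.7 and 16.8 CPM in IN@OMVs (1.28 ± 0.27). Both were lowest in IN@OMVs 1 among the IN@OMVs libraries. Their adjusted p was 0.027 and 0.024, for Chac1 0.051 to 0.12 without Control 1, Control 2, Control 3, IN@OMVs 2, IN@OMVs 3 or OMVs 2 and 0.06 with the replicate block, and for Trib3 0.071 to 0.11 without Control 1, Control 2, Control 3, IN@OMVs 2 or IN@OMVs 3. Ddit3, the stress factor CHOP, was at 16.9, 15.5 and 14.9 CPM in Control and 24.9, 31.7 and 26.0 CPM in IN@OMVs (0.81 ± 0.10, adjusted p = 0.0021), and Herpud1, a factor of endoplasmic reticulum degradation, at 69.7, 63.9 and 65.0 CPM in Control and 105, 99.3 and 96.2 CPM in IN@OMVs (0.60 ± 0.06). Dnaja1, a co-chaperone, had 266, 256 and 285 CPM in OMVs and 281, 255 and 264 CPM in IN@OMVs, against 186, 185 and 194 CPM in Control. Fdps, an enzyme of the mevalonate pathway, was at 123, 108 and 116 CPM in Control and 146, 178 and 161 CPM in IN@OMVs (0.48 ± 0.08).

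Of 30 oxidative phosphorylation subunits edgeR, DESeq2 and limma-voom called 0 each, 3 had an unadjusted p under 0.05 in edgeR, and 1 was called lower without IN@OMVs 1. The glycolysis and hypoxia list had 4 of 31 called higher and 3 lower, with or without IN@OMVs 1, or 22.6% called against 6.55% of all genes. Higher calls came to 1 without Control 2, Control 3, IN@OMVs 2 or IN@OMVs 3. The number called lower was 0 without Control 1, Control 2, Control 3, IN@OMVs 2 or IN@OMVs 3, and 1 without OMVs 2 and with the replicate block. Hk3, the hexokinase of myeloid cells, was at 209.7, 193 and 209.9 CPM in Control and 466, 348 and 346 CPM in IN@OMVs (0.92 ± 0.13), and Gapdh at 3923 ± 155 CPM in Control and 4277 ± 418 CPM in IN@OMVs, not called. In the cell cycle list 2 of 32 were called higher (Ccnd2 and Ccnd1) and 1 lower (Ccnb2), or 9.4% called against 6.55% of all genes. Called higher were 1 without Control 1, Control 2, Control 3, IN@OMVs 2 or IN@OMVs 3. The count called lower was 0 without Control 1, Control 2, Control 3, IN@OMVs 2, IN@OMVs 3 or OMVs 2 and with the replicate block. Ccnb2 had an adjusted p of 0.075 with the block. The proliferation marker Mki67 was at 369, 435 and 433 CPM in Control and 319, 368 and 354 CPM in IN@OMVs (adjusted p = 0.13). In the lysosomal protease list 1 of 21 was called, or 4.8% against 6.55% of all genes. It was Ctsk, a collagen-degrading cathepsin, at 272, 194 and 216 CPM in Control and 108, 106 and 131 CPM in IN@OMVs (-0.99 ± 0.15). The Fc gamma receptors had 1 of 8 called higher, Fcgr4 (0.53 ± 0.13), and 1 lower as well without IN@OMVs 1. The 1 call was 12.5% of that list, against 6.55% of all genes. The adjusted p of Fcgr4 was 0.063 to 0.16 without Control 1, Control 2, Control 3, IN@OMVs 2, IN@OMVs 3 or OMVs 2 and 0.07 with the replicate block.

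**Figure D5:**
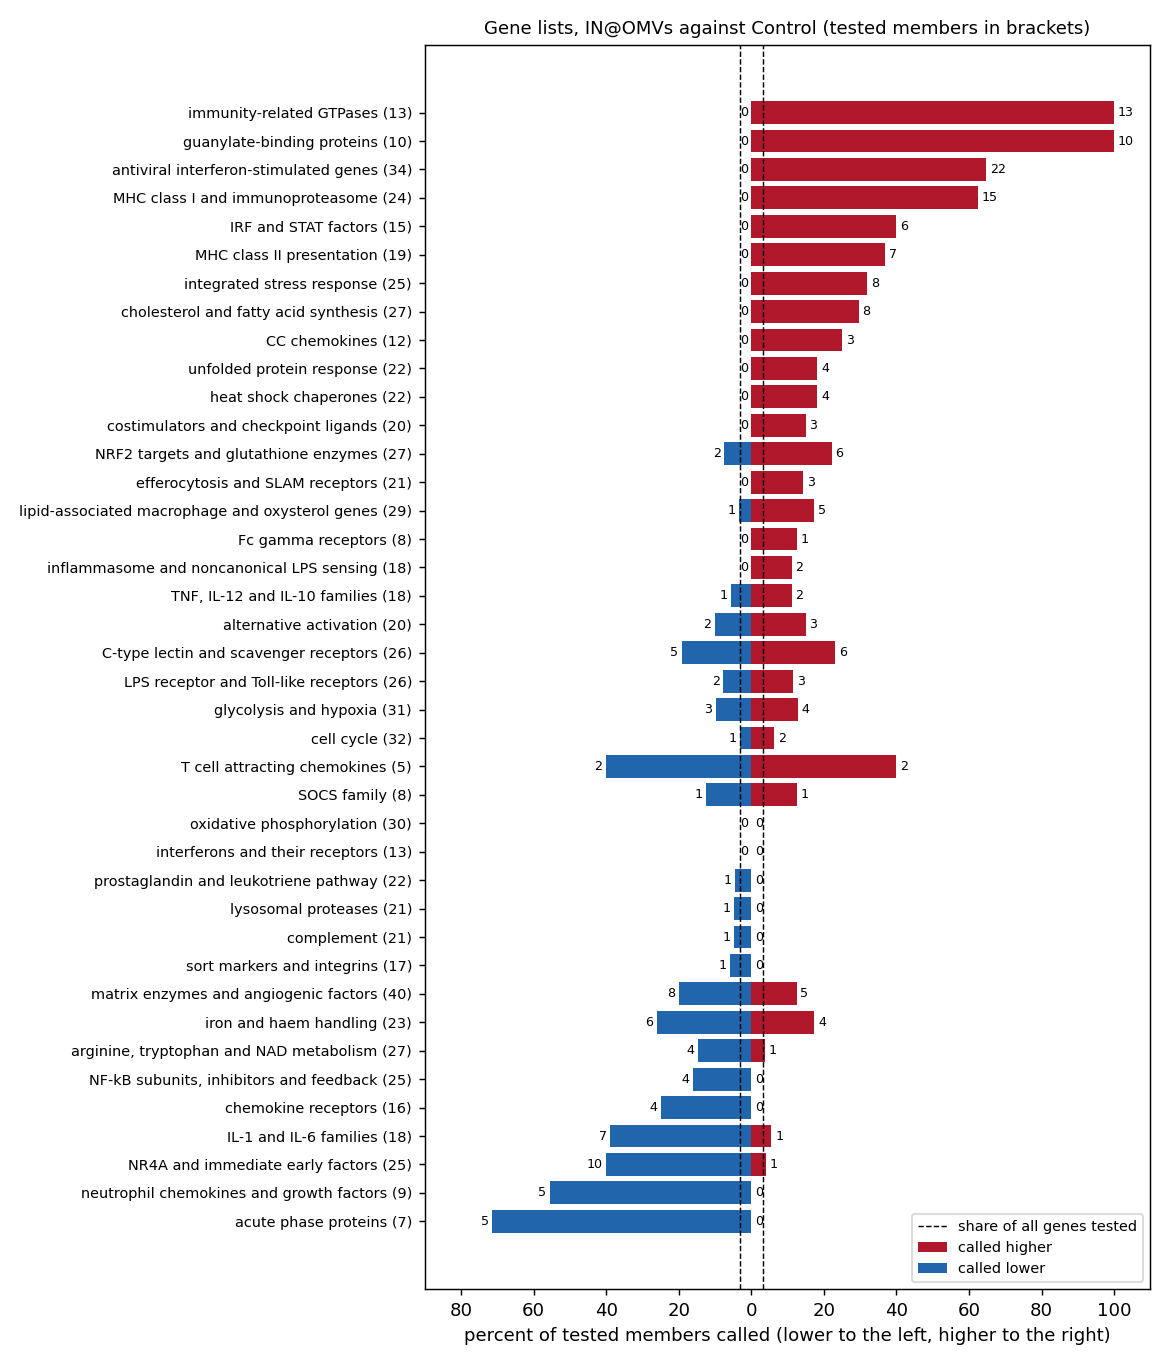
Bars give, for each of 40 gene lists, the percent of tested members (number in brackets) called lower to the left and higher to the right in IN@OMVs against Control, with the number called at the end of each bar. The dashed lines mark the shares of all genes tested, 3.24% lower and 3.32% higher, which the GTPase families, the antiviral and class I genes on the right and the acute phase proteins on the left exceed by the most.

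Where IN@OMVs differed from OMVs at the same protein dose was tested directly, with the OMVs libraries in place of Control. Both comparisons share the IN@OMVs libraries, so each is given by its own values. Against OMVs 373 genes were called (2.85%), 144 higher (1.1%) and 229 lower (1.75%). The count was 786 without IN@OMVs 1, 191 without IN@OMVs 3, 212, 180 and 199 without OMVs 1, 2 and 3, and 243 without Control 3, which shares the estimate of spread. Against OMVs, 8 of 10 guanylate-binding proteins, 8 of 13 immunity-related GTPases and 12 of 34 antiviral genes were called higher, and 5 of 7 acute phase proteins and 4 of 9 neutrophil chemokines lower. These counts became 9, 11, 19, 5 and 5 without IN@OMVs 1. The guanylate-binding proteins came to 4 without IN@OMVs 3 or OMVs 1 and 5 without OMVs 3. Antiviral genes came to 7 without Control 3, and to 5, 4 and 5 without OMVs 1, 2 and 3. Neutrophil markers summed to 1093, 851 and 1079 CPM in OMVs, against at most 283 CPM in IN@OMVs, and 11 of 13 were called lower against OMVs (13 without IN@OMVs 1). Monocyte markers summed to 5949, 5751 and 5987 CPM in OMVs, and 6 of 14 were called lower (8 without IN@OMVs 1; 4 without OMVs 1 or OMVs 3). The part of these cells in the falls against OMVs was not tested. Gbp2b was 2.67 ± 0.20 log2 units higher than in OMVs and Ch25h 1.54 ± 0.17, with adjusted p of 0.00037 and 0.0024. Saa3 differed by -6.13, Hp by -3.52, Cd38 by -2.39 and Il1b by -1.91, each called.

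Other genes that separated IN@OMVs from Control did not pass against OMVs. Cxcl9 was at 641, 790.3 and 916 CPM in OMVs, with a log2 fold change of 0.36 in IN@OMVs against OMVs (adjusted p = 0.28). Cd163 differed by -0.27, Lyve1 by -0.05 and Chil3 by -0.22, with adjusted p of 0.80, 0.98 and 0.58, and all 3 were called lower in OMVs than in Control, among 55 called genes (0.42%) of which 16 were lower (0.122%; adjusted p of 0.036, 0.038 and 0.023). Of the class II list edgeR called 0 of 19 against OMVs, with 9 at an unadjusted p under 0.05 and 3 called without IN@OMVs 1, while DESeq2 called 5 and limma-voom 0. Nos2, by contrast, was called against OMVs but not against Control. It was at 311, 489.9 and 487 CPM in OMVs, with a log2 fold change of -1.20 in IN@OMVs against OMVs (adjusted p = 0.0044). Ccl5 was at 184, 200.1 and 243 CPM in OMVs, with a log2 fold change of -1.29 in IN@OMVs against OMVs (adjusted p = 0.0015). A p that misses the threshold does not show that the groups were alike.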

How the data were processed

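Gene expression was measured by RNA-seq of oligo-dT libraries from FACS-sorted CD11b+ F4/80+ cells of MC38 tumours, 3 libraries per group. The deposited table holds expected counts for 18042 gene symbols in 9 libraries, which the authors estimated with RSEM, per the submitters' processing notes. Those notes also name BWA and Bowtie2 and the builds mm9 and hg19, without versions or roles. Strand handling and annotation are not given in the sources used here. Between 88.8% and 89.6% of values per library were whole numbers, and 2858 genes had a fraction in some library, so near-identical genes can share reads. Overlapping antisense genes cannot be told apart.

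Expected counts were rounded and tested with edgeR 4.0.16 (R 4.3.3): TMM scaling, filterByExpr, 1 mean per group over all 9 libraries, and a quasi-likelihood test of each contrast with Benjamini-Hochberg adjustment over 13090 genes. Called means an adjusted p under 0.05 without a fold threshold. Errors beside log2 fold changes are standard errors, CPM of single genes are TMM-scaled, and SDs are over 3 libraries. Marker sums are scaled to the total of each library only, without TMM factors. Library totals ran from 16813230 to 17288322, and the common biological coefficient of variation was 0.131. On data simulated for IN@OMVs against Control with 200 of 13090 genes changed, the fit called 52.2% of 1.5-fold, 79.1% of 2-fold and 95.5% of 4-fold changes, with 15 false calls among 166. That share of false calls is above the 0.05 that the adjustment aims for. The simulated libraries had the fitted spread of each gene, but none stood apart as IN@OMVs 1 did and no effect was shared by replicate number. The shares therefore hold for that setting and may differ in these data.

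Named genes were the 15 largest called changes in each direction with non-overlapping groups and a mean of at least 5 CPM, up to 3 called members per list and direction with the smallest p, the most abundant tested member of each list, and a fixed set of genes. Genes printed outside this rule were chosen after their values were seen: Batf3, Btg2, Camp, Chac1, Clec9a, Cxcl1, Cxcr1, Egr1, Elane, Gbp10, Gbp5, Gbp7, Gbp8, Gbp9, Ifit2, Ifngr1, Ifnlr1, Igtp, Il1a, Il1r2, Il7r, Irf2, Irf7, Irf8, Irgm2, Ly6c1, Ly6g, Mmp9, Mpo, Naaa, Nfkb1, Pdgfrb, Rel, Rela, Relb, Rfx5, Rfxank, Rfxap, Saa1, Stat3, Stat6, Tfrc, Trib3, Usp18 and Zbp1. The comparison, gene lists and named genes were chosen with earlier results of these data known. Samples with the same replicate number in IN@OMVs and Control deviated together (correlations of 0.45, 0.31 and 0.15). The numbers were therefore taken to pair them in the replicate block, an alternative, while the main fit ignored the numbers. The block joined libraries of the same number over all 3 groups, OMVs included. The labels do not say what a number marks. IN@OMVs 2 correlated more with Control 3 (0.36), and IN@OMVs 3 more with Control 2 (0.29), than with the library of their own number. Promoters came from RefSeq's GRCm38.p6 by symbol. DESeq2 1.42.0, limma-voom (limma 3.58.1), other filters and scalings, the replicate block and each library left out were the alternatives. Some genes of the lists are not reported here.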

Additional observations from a re-analysis of the deposited data

How the results depend on the processing

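The 13090-gene comparison of IN@OMVs with Control gave 858 calls, and 393 to 1635 when each library was left out in turn. It gave 519 with only the 6 libraries compared (508 of them among the 858). It gave 1475 with all 3 libraries numbered 1 left out, a setting chosen after seeing the data that leaves out IN@OMVs 1, the library that stood apart. It gave 854 with DESeq2's size factors in edgeR, 1184 with DESeq2, 830 with limma-voom, 782 without the filter, 867 at 5 CPM, 693 without fractional genes and 673 with the replicate block. Against OMVs, 373 genes were called, 180 to 786 with each library left out, 646 with DESeq2, 195 with 6 libraries, 844 without the libraries numbered 1 and 306 with the replicate block. The share of calls that were higher in IN@OMVs against Control was 50.6%, and 43.3% to 59.1% over the alternatives. Of 183 named genes tested, 143 were called. All 143 kept their sign and 100 their call with each of the 9 libraries left out, 143 were called without IN@OMVs 1, and 131 with the replicate block. The causes of these moves were not tested, and some of these settings put fewer libraries into the fit. IN@OMVs and OMVs libraries with the same number had correlations of 0.073, 0.51 and -0.37, which did not show a pairing by number. The replicate block still tied these libraries by number. Its 306 calls against OMVs therefore rest on a pairing that the correlations do not show. Depth limits most the genes under the low-count filter, such as Ifnb1, which were tested only in the fit without it.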
